A study of Mus musculus with 6 samples.

Results

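Slc6a4, the gene of the serotonin transporter SERT, is 1 of the 701 genes in a table of read counts from the peripheral ventrotemporal (VT) retina of the mouse after optic nerve crush (ONC). It was chosen by its name alone, as the single gene whose product the mutant mice lack, and its row is described here in every sample and against the other genes of the table. The study asked how loss of SERT alters gene expression in the VT retina soon after the nerve is injured.

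Both groups were mice of 8 weeks (postnatal day 56) whose left optic nerve had been crushed for 5 s with forceps behind the optic disc, and the injured retina was collected 24 h later. The first group was wildtype (WT, strain C57BL/6 in the labels and C57BL/6J in the study's methods) and the other, labelled Slc6a4 KO and called Slc6a4-/- here, carried a constitutive loss of Slc6a4 in every tissue, so that retina, brain and blood lacked it together. There were 3 samples of either genotype, each a pool of VT retinae from 3 mice, and the p-values below therefore measure the spread between pools. Values are listed in the order of samples 1 to 3 throughout. The genotypes were purchased as separate lines, males and females both served, the sex of a pool was not given, and which part of the gene is deleted was not given in the sources used here. All 6 samples had been crushed, so the level of Slc6a4 before injury is not measured in this comparison.

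SERT is a membrane protein of the solute carrier family SLC6, whose members carry neurotransmitters, amino acids or related molecules into cells along with sodium. SERT returns released serotonin to the cell and is the target of the serotonin reuptake inhibitors used against depression. Neurons that make serotonin express it throughout life, whereas in the developing retina it marks retinal ganglion cells (RGCs) whose axons project to the same side of the brain, a population that lies in the VT retina.

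Slc6a4 (ENSMUSG00000020838) occupies chromosome 11 from 76998603 to 77032340 in the mouse genome GRCm38 and is read from the plus strand. The annotation (GENCODE M21) gives 3 coding transcripts. The longest has 15 exons and 2796 bases, and its start codon lies in exon 3. A second has 14 exons, 2725 bases and its start codon in exon 2, and both encode a protein of 630 amino acids. The exons of the coding transcripts cover 2855 bases together, the length over which the reads were normalised. Of the 2837 distinct stretches of 75 bases (the read length) in these transcripts, 0 occurred in a transcript of any other gene, so reads of Slc6a4 need not be shared with another SLC6 gene. An antisense gene of the minus strand, Gm12343, overlaps the locus. The search above covered both strands, so no stretch of 75 bases of the coding transcripts lies in an annotated transcript of Gm12343. The libraries kept strand, but whether the counting used it was not given. Antisense reads over shorter shared stretches, or from outside the annotated transcripts, therefore cannot be told apart from sense reads.

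The sequence just before the start that RefSeq gives the gene is shown as the upstream end of the transcription unit whose reads are described below. RefSeq places it on the plus strand of GRCm38.p6, 250 bases at chr11:76998347-76998596, and the capitals mark matches to the letters GGGCGG or TGACG on either strand.
Slc6a4 upstream: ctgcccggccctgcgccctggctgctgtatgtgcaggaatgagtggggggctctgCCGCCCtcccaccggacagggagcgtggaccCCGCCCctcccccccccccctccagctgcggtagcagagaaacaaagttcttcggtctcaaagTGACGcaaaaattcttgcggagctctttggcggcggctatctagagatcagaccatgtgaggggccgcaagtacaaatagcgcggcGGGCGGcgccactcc
GGGCGG, the GC box letters, occurred 3 times, at 195, 164 and 15 bases before the start, and 32.7% of 32851 mouse promoter windows of this length held it. TGACG, the core of the cAMP response element, occurred 1 time, at 101 bases before the start, and 17.8% of windows held it. The letters TATAA were matched 0 times on either strand, and 22.8% of windows held them. These matches describe the sequence only.

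Slc6a4 was read abundantly in all 3 WT samples and hardly at all in the Slc6a4-/- samples. The reads assigned to the gene numbered 1516, 1397 and 1548 in WT. In Slc6a4-/- they numbered 0, 0 and 3. No Slc6a4-/- sample came near the lowest WT sample, so each library matched its label at the targeted gene.

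Counting error alone gives these reads 95% Poisson intervals of 1441 to 1594, 1325 to 1472 and 1472 to 1627 in the WT samples. For a sample with 0 reads the interval reaches 3.69, and for the 3 reads of Slc6a4-/- sample 3 it runs from 0.619 to 8.77. These intervals cover counting error only, since reads amplified by PCR are not independent molecules. The table holds 1.335% to 1.594% of the reads of each library, and the whole libraries correspond to 75.3 M to 79.7 M reads in WT and 81.1 M to 94 M reads in Slc6a4-/-, recovered from the authors' mean RPKM (reads per kb of exon and per M reads of the library).

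**Figure D1:**
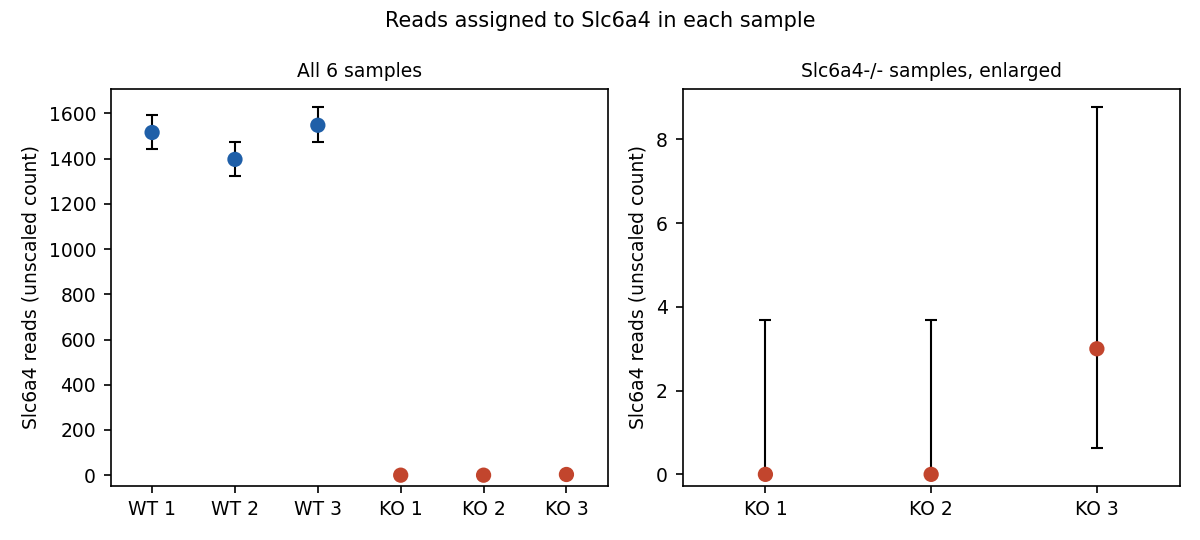
Number of reads assigned to Slc6a4 in each sample (points, unscaled counts) with 95% Poisson intervals (bars), for all 6 samples on the left and for the Slc6a4-/- samples (KO) alone, on an enlarged axis, on the right. The WT samples lie between 1397 and 1548 reads and the Slc6a4-/- samples at 0, 0 and 3.

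Divided by library totals relative to their mean, the reads became scaled counts of 1668, 1451 and 1627 in WT, with a mean of 1582 ± 115.5 (SD, n = 3). Slc6a4-/- sample 3 had a scaled count of 3.06 and the others 0. As a rate, Slc6a4 took 20.1, 17.5 and 19.6 reads per M reads of the library in WT and 0.0370 in Slc6a4-/- sample 3. Differences in the number of Slc6a4-expressing cells and in RNA per cell cannot be told apart in such pooled tissue.

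What remained in the mutant was bounded by depth. A floor of 3 reads per library lies 598-fold below the WT rate in Slc6a4-/- sample 1 and 570-fold below it in sample 2. This floor is a set value and no confidence limit. The 95% counting intervals of these samples reached 0.206% and 0.216% of the WT rate. The 3 reads of sample 3 amount to 0.194% of the WT rate, with a counting interval of 0.04% to 0.567%. Over all samples, 3 reads in Slc6a4-/- against 4461 in WT gave 0.0594% of the WT rate (exact conditional binomial interval 0.0122% to 0.174%), or a rate 1683-fold lower (576 to 8165). Slc6a4-/- sample 3 decides this value: without it the ratio was 0, with an upper limit of 0.105%.

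In limma on log2(scaled count + 1) over all 701 genes, the log2 fold change of Slc6a4 was -9.95 (SE 0.56, adjusted p = 0.000201 from limma, Benjamini-Hochberg method). It was the largest change in size among the genes of the table and the second by p-value, after Srp54b, which has near-identical neighbouring copies. The fitted fold depends on the pseudocount and is no bound. An exact two-sided permutation test of the single value gave p = 0.1, the smallest that 3 samples against 3 allow.

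Slc6a4 was 1 of 9 genes called at an adjusted p below 0.05 in limma, 1.28% of the table, 1 of 3 called lower (0.428%) beside 6 called higher (0.856%) in the mutant. The authors had selected all 701 genes for a difference between these same samples, and 45.9% of them had an unadjusted p below 0.05 in limma. The number of genes called was 173 when WT sample 1 was left out and 4 when WT sample 2 was. It was 5 when mutant sample 2 was left out and 17 when mutant sample 3 was. Slc6a4 stayed called in each of these 6 fits with a sample left out, with a log2 fold change between -10.63 and -9.61.

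**Figure D2:**
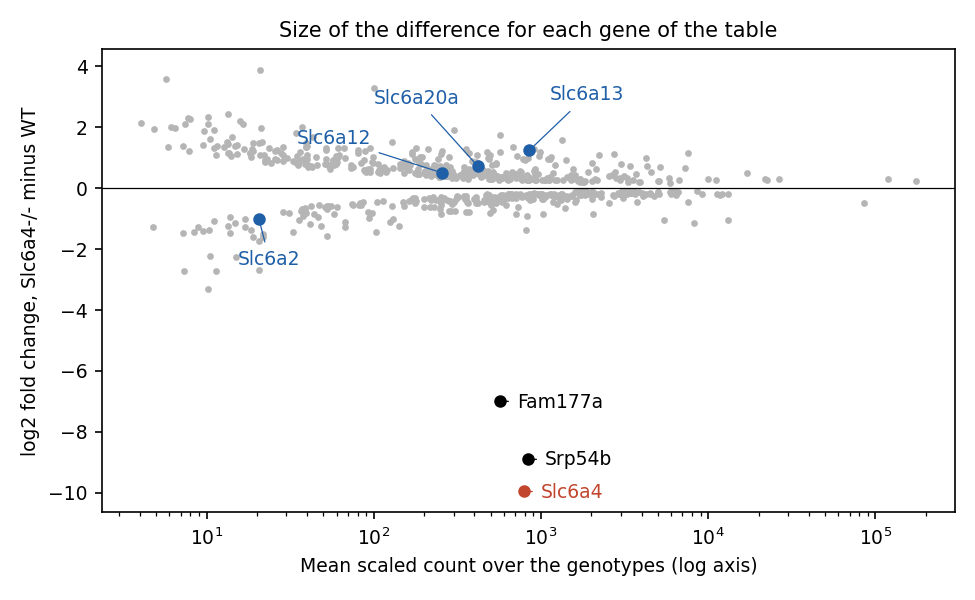
Log2 fold change (Slc6a4-/- minus WT) of each of the 701 genes against its mean scaled count over the genotypes on a log axis, with Slc6a4 in red, other SLC6 genes in blue and further genes near 0 in a genotype in black. Slc6a4 lies lowest, at -9.95, beside Srp54b at -8.90 and Fam177a at -6.99, and the empty band around 0 reflects the selection of the table.

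Levels between genes are compared per exon length only. In WT, Slc6a4 had an RPKM of 7.05, 6.14 and 6.88, a mean of 6.69 ± 0.488 (SD, n = 3). The authors' mean is also 6.69, but the library totals were fitted to the authors' means, so this match is not independent. Slc6a4 ranked 120 of the 701 genes by the authors' mean RPKM of the higher genotype, above 82.9% of them, where the median gene had 1.86. Among the 304 genes with a higher mean in WT it ranked 65, against a median of 2.37.

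On this scale Slc6a4 stood among genes that mark whole cell classes of the injured adult VT retina. Nefl, the light chain of the neurofilaments that fill RGC axons, had a WT RPKM of 42.9 ± 4.05 (SD, n = 3). Gfap, the intermediate filament of astrocytes and reactive Müller glia, had 5.44 ± 0.892. Slc32a1, which loads GABA and glycine into the vesicles of inhibitory amacrine cells, had 4.57 ± 0.276. Ina, a further neurofilament subunit, had 4.25 ± 0.251. Slc6a4 and its neighbour in this order, Gfap, did not differ beyond their spread, and Slc32a1 and Ina also overlapped within 1 SD, whereas Nefl lay above and Slc32a1 below Slc6a4 by more than their SDs.

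**Figure D3:**
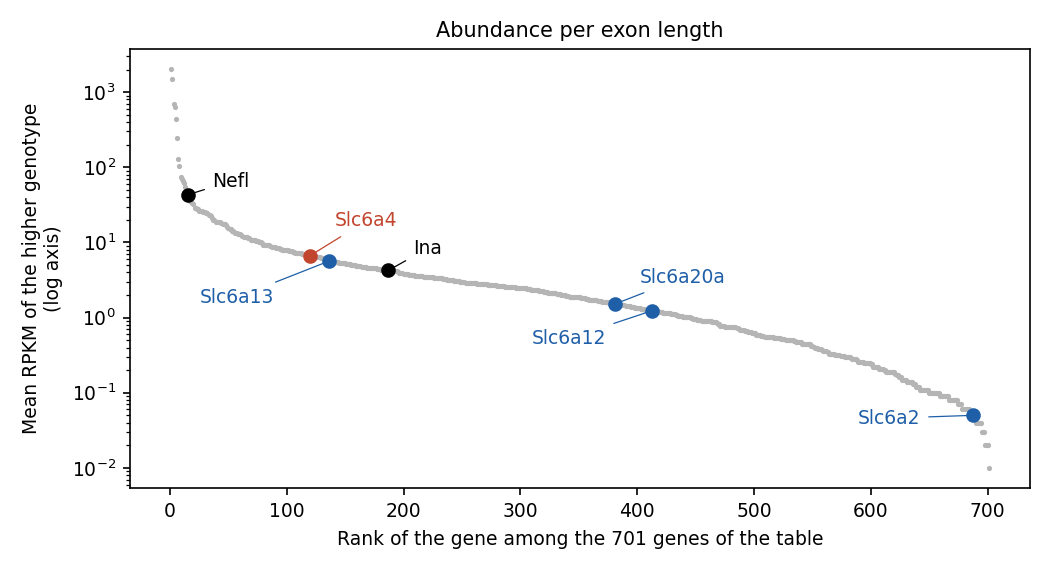
The authors' mean RPKM, taken in whichever genotype was higher (log axis), for each gene of the table, ordered by rank, with Slc6a4 in red, other SLC6 genes in blue and neurofilament genes in black. Slc6a4 stands at rank 120 with 6.69, between Nefl at rank 15 and Ina at rank 187.

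The WT pools differed in Slc6a4 by more than counting error. Its scaled count had a coefficient of variation of 7.30%, where counting error alone gives 2.59%. Of the 94 genes within 1.5-fold of its WT mean, Slc6a4 included, 30 varied more than Slc6a4, and the median was 5.46%. The authors' selection for a difference between these samples favours genes of small spread, so these 94 do not stand for all genes of that level.

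The order of the WT pools was the same for Slc6a4 and Nefl, but it was not particular to neurofilament genes. Gfap, at 2152, 1555 and 1792 in WT, shared it. So did Cluh, a gene near Slc6a4 on chromosome 11, at 1756, 1534 and 1719. The scaled count of Nefl was 12939, 10749 and 12359 in WT, lowest in sample 2 like Slc6a4. There were 129, 135 and 132 reads of Slc6a4 per 1000 reads of Nefl in the WT samples, a ratio in which depth cancels. Its coefficient of variation was 2.3%, against 9.44% for the scaled count of Nefl and 7.30% for that of Slc6a4. Counting error of Slc6a4 alone gives 2.59%, so a ratio this steady lies below what counting allows on average. With 687 genes used in turn as the denominator, the median coefficient was 14.6% and 11 (1.6%) gave a steadier ratio than Nefl. Against Ina, the other neurofilament gene, there were 1369, 1325 and 1467 reads of Slc6a4 per 1000 reads, and the ratio varied by 5.23%, close to the 5.91% of Ina itself. As denominators, 69 genes (10%) gave a steadier ratio than Ina. These ratios were computed after the values were seen, over 3 samples and with no test.

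Of 17 RGC marker genes, Nefl and Ina were in the table, both with lower means in Slc6a4-/-, and 0 of 2 passed the adjusted threshold. Nefl had scaled counts of 8989, 11688 and 11203 in the mutant, which overlap the WT values (log2 fold change -0.18, SE 0.13). Ina had 1218, 1095 and 1109 in WT and 938.9, 774.2 and 979.8 in Slc6a4-/-, so the mutant samples lay below all WT samples (log2 fold change -0.35, SE 0.12, adjusted p = 0.104 from limma). Across the table, 58.2% of genes had genotypes that did not overlap, 23.7% lower and 34.5% higher in Slc6a4-/-.

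Gfap likewise lay lower in all Slc6a4-/- samples, at 1371, 1544 and 1257 against 2152, 1555 and 1792 in WT (log2 fold change -0.39, SE 0.14, adjusted p = 0.108 from limma). Slc32a1 overlapped between genotypes (log2 fold change -0.24, SE 0.14). These 4 genes are also expressed in the brain, so the retinal label was not checked by them.

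Few other genes of the serotonin system were in the table, which holds only 3.17% of the coding genes on chromosomes other than 11. Low counts are therefore no trait of this system. Of 16 genes for the synthesis, storage and breakdown of serotonin and of the tryptophan it is made from, 2 were in the table, and 0 passed. Kmo, a kynurenine pathway enzyme, had scaled counts of only 0, 0 and 2.10 in WT, against 0.881, 10.2 and 11.2 in the mutant. Kyat1, which converts kynurenine, had 417, 453.9 and 487.8 in WT and 486.2, 633.6 and 602.8 in Slc6a4-/- (log2 fold change 0.34, SE 0.14, adjusted p = 0.109 from limma). Both overlapped between genotypes. Of 14 serotonin receptors and 16 proteins known to bind or regulate SERT, 0 were in the table, which holds selected genes and so gives no level for them.

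Platelets and mast cells also carry SERT or hold serotonin. Of 10 platelet and 7 mast cell markers, 0 were in the table. Since the table holds selected genes, this count does not tell whether such cells were in the pools.

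Slc6a4 was accompanied in the table by 4 of the 19 other members of its family that were listed, and none of these passed the adjusted threshold in limma. Slc6a13, Slc6a12 and Slc6a20a had higher means in Slc6a4-/- and Slc6a2 a lower mean. Slc6a4 itself was the 1 called member of the 5, against 1.28% of all genes. Since it is the gene the mutant lacks, this count says nothing about the family. The median log2 fold change of the 5, Slc6a4 included, was 0.50, against 0.30 over all genes.

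Slc6a2, the norepinephrine transporter and a monoamine carrier like SERT, is also the 1 of 6 other carriers of serotonin that was in the table. It had 33.0, 14.5 and 35.7 scaled counts in WT. In Slc6a4-/- they were 7.93, 22.2 and 10.2, so the groups overlapped (log2 fold change -1.02, SE 0.52, adjusted p = 0.123 from limma). Per length it stood far below Slc6a4, with a WT RPKM of 0.0533 ± 0.0221 (SD, n = 3).

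Slc6a13, a GABA transporter of the meninges and other barrier tissues, ranked 136 by the authors' mean RPKM, close to Slc6a4. It had 1057, 569.1 and 164 scaled counts in WT, against 1293, 1113 and 910.3 in the mutant. The highest WT value was above the lowest mutant value (log2 fold change 1.24, SE 0.62, adjusted p = 0.12 from limma). It was 1.84 without WT sample 1, where it passed the threshold (adjusted p = 0.0448 from limma), and 0.50 without WT sample 3. In WT its RPKM was 3.05 ± 2.28 and in Slc6a4-/- 5.64 ± 0.977 (SD, n = 3 each), so its spread between WT pools was far wider than that of Slc6a4.

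Slc6a12, a carrier of betaine and GABA that lies next to Slc6a13 on chromosome 6, had 285, 218.1 and 147.2 in WT and 334.7, 293.2 and 265.6 in Slc6a4-/- (log2 fold change 0.50, SE 0.26, adjusted p = 0.122 from limma). Here too WT sample 1 exceeded the lowest Slc6a4-/- sample. Slc6a20a, a proline transporter, had 421.4, 345.8 and 199.7 in WT and 580.5, 512.4 and 447.5 in Slc6a4-/-, without overlap (log2 fold change 0.73, SE 0.28, adjusted p = 0.108 from limma). It passed without WT sample 1 (log2 fold change 0.96, adjusted p = 0.0465 from limma) and stood at 0.42 without WT sample 3.

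In WT these 3 genes shared an order, highest in sample 1 and lowest in sample 3, that Slc6a4 did not follow. Of 9 markers of pigment cells, 5 were in the table (Dct, Lrat, Mlana, Pmel, Tyrp1). Their sum followed this order, and so did each of them except Lrat, which was highest in WT sample 2. The summed scaled count was 2244, 1698 and 931.5 in WT. In Slc6a4-/- the sum was 3396, 3763 and 1996, so the highest WT sum exceeded the lowest Slc6a4-/- sum. All 5 had a higher mean in Slc6a4-/- (median log2 fold change 1.06) and 0 passed the adjusted threshold. Without WT sample 1, Pmel (adjusted p = 0.0397) and Mlana (0.0448) passed it in limma. The 4 further markers, Rpe65, Mitf, Tyr and Best1, have no values here. The part of pigment cells in the levels of these transporters was not tested.

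**Figure D4:**
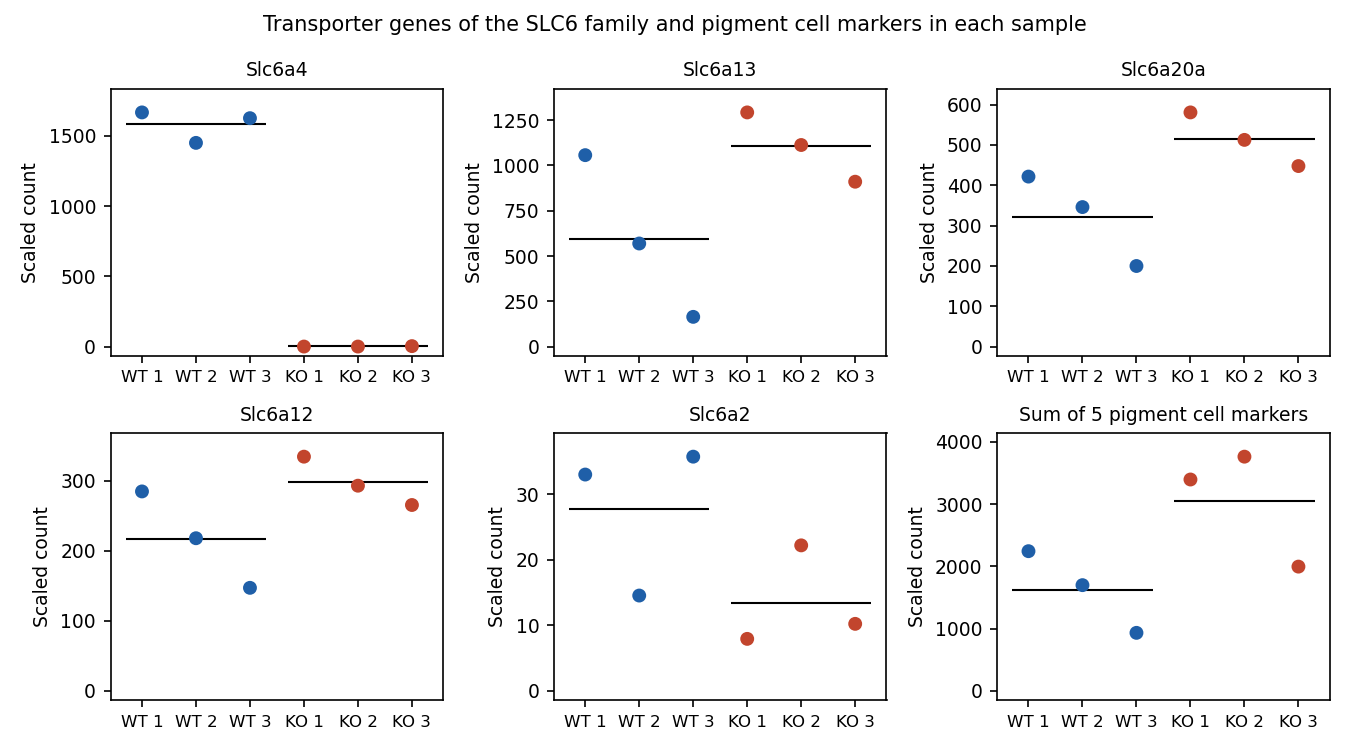
Scaled counts (linear axes) of Slc6a4, of 4 other SLC6 genes and of the sum of 5 pigment cell markers in each WT (blue) and Slc6a4-/- (KO, red) sample, with lines at the genotype means. Slc6a4 separates the genotypes entirely, whereas Slc6a13 runs from 1057 down to 164 within WT, as the pigment sum runs from 2244 to 931.5.

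Of 12 genes of the ipsilateral RGC programme, Slc6a4 and Zic1 were in the table. Zic1 encodes a zinc finger factor related to Zic2, the factor that directs RGC axons to the same side of the brain. It had 584.3, 426.9 and 273.3 scaled counts in WT, against 777.8, 525.4 and 505.7 in the mutant, with overlap (log2 fold change 0.53, SE 0.30, adjusted p = 0.146 from limma). Zic1 thus had its lowest value in WT sample 3, where Slc6a4 was near its highest. Its WT order was that of Slc6a13, Slc6a12, Slc6a20a and the sum of the pigment cell markers.

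The genes whose pattern over the 6 samples was most like that of Slc6a4 were ranked by Pearson's r on log2(scaled count + 1). Since Slc6a4 is near 0 in every Slc6a4-/- sample, r mainly measures how cleanly a gene separates the genotypes, and it is given as a description. The highest values belonged to Magi1 (r = 0.990), Srp54b (0.988), Cyp4f14 (0.983), Olfr1564 (0.975) and Shisal1 (0.972). Magi1 and Shisal1 differed little in size. Magi1, a scaffold protein of cell junctions, had scaled counts of 3673, 3640 and 3664 in WT and 3220, 3260 and 3382 in Slc6a4-/-. Its log2 fold change was -0.15 and turned to 0.02 with no library scaling, as that of Shisal1 went from -0.17 to 0.00. Cyp4f14, a fatty acid hydroxylase, had 63.8, 60.2 and 68.3 in WT and 41.4, 41.6 and 42.9 in Slc6a4-/- (log2 fold change -0.60, SE 0.21). The log2 fold change of Olfr1564, an olfactory receptor gene, was -0.67 (SE 0.25).

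The opposite pattern was closest in Cdcp3 (r = -0.994), Gbp3 (-0.992), Rec8 (-0.988), Olig3 (-0.982) and Gabra2 (-0.976). Gabra2, a subunit of the GABA-A receptor, had scaled counts of 572.2, 505.8 and 581.4 in WT and 1037, 1193 and 1105 in Slc6a4-/-. It rose in the mutant (log2 fold change 1.01, SE 0.11, adjusted p = 0.00753 from limma), and the adjusted p was 0.0517 without WT sample 2. Cdcp3 had 5665, 5525 and 5842 in WT and 9393, 8916 and 8517 in Slc6a4-/- (log2 fold change 0.65, SE 0.08, adjusted p = 0.012 from limma). Without WT sample 2 its adjusted p from limma was 0.108, and without WT sample 3 it was 0.0543. Rec8, a cohesin subunit of meiosis, had 178.3, 161 and 175.6 in WT and 287.1, 299.7 and 277.9 in Slc6a4-/- (adjusted p = 0.057 from limma). Rec8 (adjusted p = 0.0397) and Gbp3 (0.0448) passed in limma without WT sample 1.

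A near absence like that of Slc6a4 was shared by Srp54b and, in part, by Fam177a, neighbours on chromosome 12. Srp54b, a copy of the gene for the signal recognition particle subunit SRP54, had 1720, 1275 and 1715 reads in WT and 3, 3 and 2 reads in Slc6a4-/- (log2 fold change -8.90, SE 0.23, adjusted p = 2.3e-06 from limma). How reads were split between its copies makes its values uncertain. Fam177a had 869, 1081 and 836 reads in WT and 0, 0 and 447 in Slc6a4-/-, so Slc6a4-/- sample 3 held many reads of a gene that samples 1 and 2 did not show. Its log2 fold change was -6.99 (adjusted p = 0.104 from limma), and without Slc6a4-/- sample 3 it was -9.94 (adjusted p = 7.19e-06). Slc6a4, by contrast, was near 0 in all 3 mutant samples.

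The share of coding genes that the table holds was larger around Slc6a4 than over the genome. Within 5 Mb on each side, 12 of 195 coding genes (6.15%) were in the table, against 43 of 1443 (2.98%) on the remainder of chromosome 11 and 643 of 20312 (3.17%) on other chromosomes. The share was 14.3% within 1 Mb (5 of 35), 9.89% within 2 Mb, 3.59% within 10 Mb and 3.61% within 20 Mb. Slc6a4 itself is not counted. Among all annotated genes, 3.6% of those within 5 Mb and 1.23% of those on other chromosomes were in the table. No test was made, since neighbouring genes can share control regions and reads. The mutated gene and the chromosome around it are inherited together, so the loss of Slc6a4 and differences in the sequence linked to it cannot be told apart.

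The neighbours moved little and in both directions. Of the 12, 9 had their higher mean in Slc6a4-/- and 3 in WT, and their median log2 fold change of 0.27 was near the 0.30 of all genes. Their median size was 0.29, against 0.49 over the table. In 8 of the 12 the genotypes did not overlap, 6 higher (34.5% over all genes) and 2 lower (23.7%). None passed the adjusted threshold, and 4 had an unadjusted p below 0.05 in limma, against 45.9% of the table. With no library scaling Ube2g1, Cluh, Vps53 and Fam57a passed (adjusted p = 0.0469 each from limma), whereas after centring the log2 fold changes of Cluh, Ovca2, Ube2g1 and Vps53 were 0.00, 0.06, 0.07 and 0.09. The nearest coding genes, Blmh 11.2 kb before and Nsrp1 12 kb after Slc6a4, were not among the 701.

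Most of these neighbours, 10 of 12, lay before Slc6a4. The annotated coding genes were not counted for each side, so this split has no share to be compared with. The nearest of the 12 was Abr, 0.38 Mb away, which overlapped between genotypes (log2 fold change -0.10, SE 0.08, and 0.08 with no library scaling). Nxn, a redox protein at 0.60 Mb, also overlapped (log2 fold change 0.32, SE 0.15). Fam57a and Gemin4 at 0.78 Mb overlap each other on opposite strands, and their log2 fold changes were 0.50 (SE 0.21) and 1.02 (SE 0.50).

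Vps53, a subunit of a complex that tethers vesicles to the Golgi, had the smallest p-value of the 12. It had 1562, 1484 and 1537 scaled counts in WT and 1782, 1942 and 1898 in Slc6a4-/-, without overlap (log2 fold change 0.29, SE 0.08, adjusted p = 0.104 from limma). Slc43a2, an amino acid transporter 1.42 Mb before Slc6a4, had 1480, 1595 and 1632 in WT and 1216, 1252 and 1369 in Slc6a4-/- (log2 fold change -0.29, SE 0.09). Sgsm2 at 2.10 Mb was likewise lower without overlap (log2 fold change -0.30, SE 0.13). Ovca2, Cluh and Ube2g1, from 1.82 to 4.31 Mb before the gene, had log2 fold changes of 0.26, 0.20 and 0.27.

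After Slc6a4 lay Sebox at 1.47 Mb (log2 fold change 0.27, SE 0.14) and Nos2 at 1.89 Mb. Nos2, the inducible nitric oxide synthase of inflamed tissue, had scaled counts of only 5.50, 4.15 and 3.15 in WT and 15.0, 10.2 and 9.20 in Slc6a4-/-. The mutant samples lay above all WT samples (log2 fold change 1.24, SE 0.42, adjusted p = 0.104 from limma), and its adjusted p was 0.0479 without the trend.

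**Figure D5:**
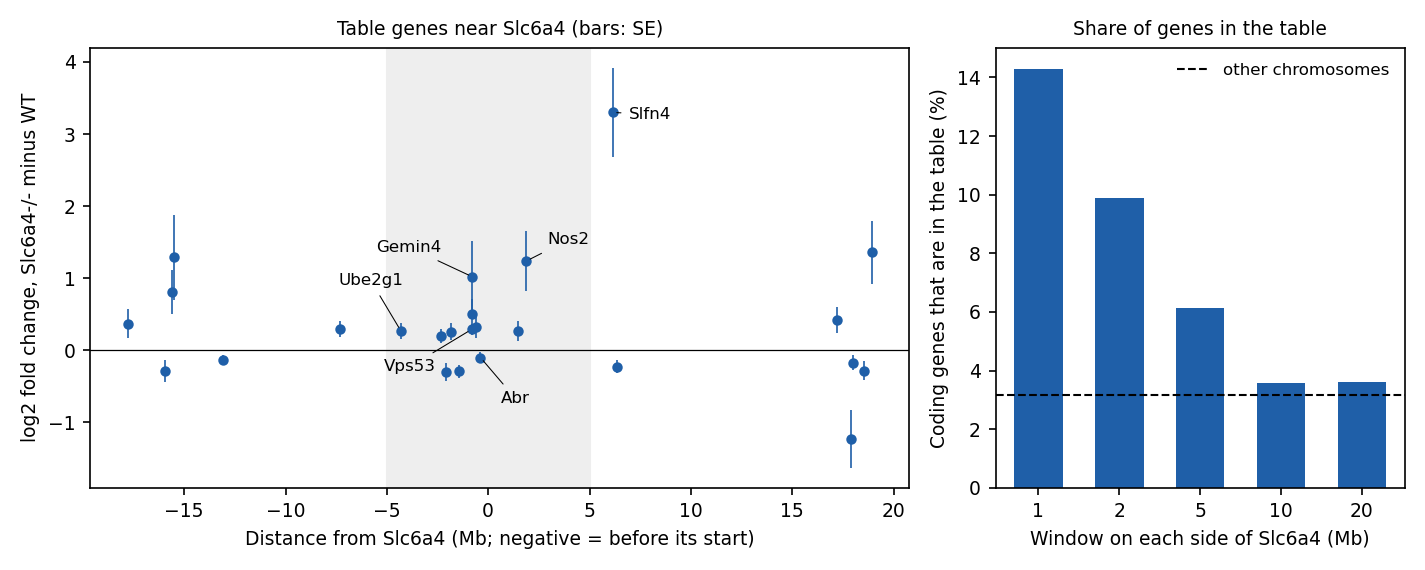
Left, log2 fold change (Slc6a4-/- minus WT, bars: SE) of table genes on chromosome 11 against their distance from Slc6a4 in Mb, with the 5 Mb on each side shaded. Right, share of coding genes that are in the table within 1 to 20 Mb of Slc6a4, which falls from 14.3% to 3.61%, with a dashed line at the 3.17% of other chromosomes.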

How the data were processed

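RNA of 6 pooled samples (RIN above 7) was made into stranded total RNA libraries with reduced ribosomal RNA and sequenced as paired reads of 75 bases. The authors aligned and counted the reads in CLC Genomics Grid Workbench 20.0 on GRCm38. The authors' deposited table gives raw counts per sample, written with commas between groups of digits, for 701 genes with at least 10 reads in 2 samples of a genotype and a p-value below 0.05 in their own test, and the mean RPKM of the higher genotype. Its columns of fold changes, p-values and group means of the authors' comparison were not used. No column of per-sample values was left out (0), and 25 blank lines were skipped.

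Since the table is a selection, library totals were recovered by a least absolute deviation fit of the deposited mean RPKM on the counts, with exon lengths of coding transcripts from GENCODE M21, in which all 701 identifiers had a position. With these totals, 329 of 336 genes over an RPKM of 2 gave the deposited value within 1%. Scaled counts are counts divided by the total relative to the mean total.

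Genotypes were compared with limma 3.58.1 in R 4.3.3 (lmFit, eBayes with trend, genotype as the only term, Benjamini-Hochberg adjustment over 701 genes) on log2(scaled count + 1), which understates changes of low genes. A count model was not run. It was not planned, because the values as written, with commas, failed a check of their unit. With the commas removed, all counts were whole numbers. Intervals and exact tests came from scipy 1.17.1 in Python 3.11.15. Scripts were tested on simulated data. Alternatives were other scalings (none, table sum, median of ratios, centring), pseudocounts of 0.5 and 3, a minimum mean of 10, no trend, voom weights, a replicate block and leaving out each sample.

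Named genes were Slc6a4, members of the gene lists in the table, table genes within 5 Mb, the 5 highest and 5 lowest correlations with Slc6a4, and genes with at most 3 reads in 2 libraries of a genotype and a mean of at least 100 in the other. The gene and the lists were chosen with earlier results of these data, and the names of the 701 genes, known.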

Additional observations from a re-analysis of the deposited data

How the results depend on the processing

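Slc6a4 was lower in Slc6a4-/- and passed the adjusted threshold in limma in all 16 alternatives, with log2 fold changes from -10.78 (voom weights) to -8.70 (pseudocount 3). The number of genes called moved from 9 to 160 with no library scaling, 5 after centring of the samples on their medians, and 43 without trend, and it lay between 4 and 173 when 1 sample was left out. Genes with an unadjusted p below 0.05 numbered 322 and ranged from 122 to 392. The scaling moved the median log2 fold change of all genes from 0.30 to 0.47 with none, 0.23 with the table sum, 0.14 with median of ratios and 0.10 after centring. With no library scaling Abr, Magi1 and Shisal1 reversed, to 0.08, 0.02 and 0.00. The Slc6a4-/- reads as a percentage of the WT rate ranged from 0 to 0.0922 when 1 sample was left out. The share of nearby coding genes in the table was 14.3% with a window of 1 Mb. Ranked by WT scaled count per kb of exon, Slc6a4 stood at 100 in place of 120. Over the 39 other named genes, 588 of 621 values kept their direction and their side of the threshold. Beside those named for single samples above, Gabra2 (adjusted p = 0.0617) and Cdcp3 (0.0773) were no longer called in limma after centring, nor Cdcp3 with the table sum (0.0518) or median of ratios (0.0741). Further named genes became called, 9 with no library scaling (Cluh, Fam57a, Gbp3, Kyat1, Olig3, Pmel, Rec8, Ube2g1 and Vps53), 6 without trend (Cyp4f14, Gbp3, Nos2, Olfr1564, Olig3 and Rec8) and 6 without WT sample 1 (Gbp3, Mlana, Pmel, Rec8, Slc6a13 and Slc6a20a). The causes of these changes were not tested.

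The replicate numbers are shared between the genotypes, and whether they pair the samples was not given. The correlations of deviations from the genotype means were 0.256, -0.218 and 0.0562 for numbers 1, 2 and 3. For samples of unlike number they ran from -0.215 to 0.186. With so few samples these values cannot decide whether samples of equal number shared a batch. With the replicate number as a block, 15 genes were called, Dct among them (adjusted p = 0.049 from limma), and the log2 fold change of Slc6a4 was -9.95 (SE 0.46, adjusted p = 8.47e-05).

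In the mutant libraries with 0 reads, the floor of 3 reads stands at 0.167% and 0.176% of the WT rate. The upper limit of the exact conditional binomial 95% interval stands higher, at 0.206% and 0.216%. Because the table holds selected genes of crushed retina, levels of genes outside it and of Slc6a4 before injury were not analysed here.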
